A study of Homo sapiens with 4 samples.

Results

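H3K27ac peaks that lay inside an exon of a protein-coding gene, yet over 5000 bp from every protein-coding start site, were examined in SK-N-BE(2)C cells, a human neuroblastoma (NB) line with amplified *MYCN*. A peak was taken when its midpoint, on chromosomes 1 to 22, met both conditions in the GENCODE 44 annotation of GRCh38, and first, inner and last exons were told apart. This gave 4591 exonic peaks of 63051 in control cells (sgCtrl) and 3003 of 49412 in *SNHG1*-depletion cells (sgSNHG1). They were 11.4% (95% interval 11.1–11.7) of the 40184 sgCtrl peaks far from start sites, and 10.4% (10.0–10.7) of the 28895 such sgSNHG1 peaks. These numbers include 20 and 17 peaks in transcripts that have an only exon.

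Acetylation of histone H3 at lysine 27 (H3K27ac) was measured by ChIP-seq in 4 samples, 2 of each group. The sgCtrl cells had received Cas9 with a non-targeting control gRNA and are labelled wildtype, and the sgSNHG1 cells had received Cas9 with *SNHG1* gRNA and are labelled *SNHG1* knockout. Both were selected with puromycin and grown from single cells, so the cells of each group are clonal. The sources used here do not say which sgSNHG1 clone was profiled, or whether both samples came from the same clone. Samples were pooled by group before peak calling, so each group has 1 list and no value per sample, the depth is unknown, and the intervals below cover counting error only. Differences between the groups therefore compare these 2 lists, and the clone, the depth and the depletion of *SNHG1* cannot be told apart. The adrenergic NB markers *HAND2*, *ISL1*, *GATA3*, *TBX2*, *MYCN*, *DBH* and *TH* each had a peak within 3000 bp of a start site in both lists.

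Acetylated H3K27 marks nucleosomes of active promoters and enhancers, where acetyltransferases such as p300 and CBP place it and histone deacetylases remove it. Enhancers are usually sought in introns and between genes, but a coding exon can also hold transcription factor sites and act as an enhancer of its own or of a neighbouring gene, and *DYNC1I1* is a known host of such exonic enhancers. The first exon of a gene lies in the promoter and was mostly removed by the distance rule, whereas inner exons are short and mostly coding, and last exons are long and mostly 3′ untranslated.

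The bases around 5 summits show what such sites look like. *MUC3A* (a membrane mucin) and *ATN1* (atrophin 1, a transcriptional corepressor) held the coding inner-exon peaks of sgCtrl with the highest −log10 p among the sites considered for printing, whose surrounding 300 bases are free of untranslated sequence. *TBX3*, a T-box transcription factor, was added after its values were seen, as an exon that codes for a regulator. Under the same conditions, *RASA4B* in sgCtrl and *TRIO* in sgSNHG1 held the peaks with the highest −log10 p that had no peak of the other list within 1 kb. Each line gives 300 bases of the plus strand of GRCh38 with the summit in the middle, and capitals mark the bases inside an exon of a protein-coding transcript.
MUC3A exon 2 of 12, sgCtrl, chr7:100958109-100958408: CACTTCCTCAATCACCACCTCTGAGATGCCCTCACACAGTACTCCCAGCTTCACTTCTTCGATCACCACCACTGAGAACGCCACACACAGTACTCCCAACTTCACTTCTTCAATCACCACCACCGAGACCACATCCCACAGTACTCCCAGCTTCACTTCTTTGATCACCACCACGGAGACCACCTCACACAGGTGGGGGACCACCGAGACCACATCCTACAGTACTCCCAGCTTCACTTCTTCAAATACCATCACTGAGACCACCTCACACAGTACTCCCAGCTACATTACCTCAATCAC
ATN1 summit between exons 5 and 6 of 10, sgCtrl, chr12:6937635-6937934: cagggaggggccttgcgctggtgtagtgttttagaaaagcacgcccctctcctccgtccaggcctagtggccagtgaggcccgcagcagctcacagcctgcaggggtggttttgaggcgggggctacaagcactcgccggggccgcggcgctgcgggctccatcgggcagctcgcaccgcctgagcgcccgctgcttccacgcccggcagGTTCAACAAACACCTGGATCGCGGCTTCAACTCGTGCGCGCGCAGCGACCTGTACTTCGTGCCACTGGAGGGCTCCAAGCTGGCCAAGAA
TBX3 exon 6 of 7, sgCtrl, chr12:114674289-114674588: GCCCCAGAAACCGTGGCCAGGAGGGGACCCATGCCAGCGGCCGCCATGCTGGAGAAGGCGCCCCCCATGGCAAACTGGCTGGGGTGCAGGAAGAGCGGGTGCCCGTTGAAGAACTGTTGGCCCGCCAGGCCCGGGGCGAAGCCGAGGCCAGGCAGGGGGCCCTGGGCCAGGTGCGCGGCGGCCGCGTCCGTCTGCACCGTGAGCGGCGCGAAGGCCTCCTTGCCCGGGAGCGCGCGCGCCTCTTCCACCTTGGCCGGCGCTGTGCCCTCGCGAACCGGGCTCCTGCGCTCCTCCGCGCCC
RASA4B exon 9 of 21, sgCtrl, chr7:102496877-102497176: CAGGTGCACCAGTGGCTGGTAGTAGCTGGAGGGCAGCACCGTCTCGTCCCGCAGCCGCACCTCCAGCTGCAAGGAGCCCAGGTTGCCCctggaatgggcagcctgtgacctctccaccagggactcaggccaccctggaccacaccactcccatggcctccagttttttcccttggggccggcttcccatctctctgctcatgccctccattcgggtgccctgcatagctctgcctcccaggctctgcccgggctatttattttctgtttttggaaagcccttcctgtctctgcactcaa
TRIO exon 36 of 57, sgSNHG1, chr5:14462710-14463009: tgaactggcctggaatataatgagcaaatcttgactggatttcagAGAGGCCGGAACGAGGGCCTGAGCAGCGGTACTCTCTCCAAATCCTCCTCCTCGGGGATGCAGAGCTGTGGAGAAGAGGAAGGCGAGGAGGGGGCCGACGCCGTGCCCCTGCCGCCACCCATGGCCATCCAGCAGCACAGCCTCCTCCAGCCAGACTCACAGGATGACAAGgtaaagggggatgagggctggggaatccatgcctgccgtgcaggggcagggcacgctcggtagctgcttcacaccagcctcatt

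All 300 bases were exonic at *MUC3A* and *TBX3*, whereas 90 were at *ATN1*, 88 at *RASA4B* and 171 at *TRIO*. The *ATN1* peak had its midpoint in exon 5, which is 2015 bp long, but its summit in the intron that follows in the protein-coding transcripts, and the capitals of its window belong to exon 6. The *RASA4B* peak reached beyond both ends of its exon of 118 bp, and the *TRIO* peak beyond the 3′ end of its exon of 171 bp. The GC content of these windows was 52% at *MUC3A*, 67% at *ATN1*, 75% at *TBX3*, 61.3% at *RASA4B* and 61% at *TRIO*. The *MUC3A* window is built of repeated units that differ by a few bases, and the assembly may hold fewer of these units than the cells do, which was not tested.

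Exonic peaks were described first by where in the gene they lay. Of the sgCtrl exonic peaks, 2349 (51.2%, 49.7–52.6) were in inner exons, 1932 (42.1%, 40.7–43.5) in last exons and 290 (6.32%, 5.65–7.06) in first exons. In sgSNHG1 the numbers were 1445 (48.1%, 46.3–49.9), 1358 (45.2%, 43.4–47.0) and 183 (6.09%, 5.29–7.01). By the transcript that gave the class, 3027 sgCtrl midpoints (65.9%) lay in coding sequence, 954 (20.8%) in 3′ UTR, 28 in 5′ UTR and 582 in transcripts with no coding sequence, and in sgSNHG1 these were 1926, 677, 11 and 389. All 290 and 183 peaks in first exons belonged to transcripts that are not annotated as protein coding, 212 and 134 of them to retained-intron transcripts, because the start sites of protein-coding transcripts had been avoided. When the start sites of every transcript of these genes were avoided as well, 2419 sgCtrl and 1604 sgSNHG1 exonic peaks remained.

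Exons held more peaks per megabase than introns in both lists, and inner exons held the most of the 3 classes. Exons make up 2.70% of the bases over 5000 bp from start sites. They held 68.7 peaks per megabase (66.7–70.7) in sgCtrl, against 19.0 in introns, 11.9 between genes and 82.8 within 5000 bp of a start site. The same densities in sgSNHG1 were 44.9 (43.3–46.6), 13.2, 9.09 and 74.3. Exons thus held 3.62 times (3.50–3.74) the intron density in sgCtrl and 3.41 times (3.28–3.55) in sgSNHG1. Inner exons had 121 peaks per megabase in sgCtrl and 74.6 in sgSNHG1, last exons 47.3 and 33.2, and first exons 48.6 and 30.6. Coding sequence had 148 and 94.3, and 3′ UTR only 30.1 and 21.4.

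The density rose with the GC content of the sequence, and at equal GC content exons lay below introns in some bins and above them in others. The GC content of 500 bp around the summit had a median of 63.0% at sgCtrl exonic peaks and 63.4% at sgSNHG1 ones, against 59.0% at intronic peaks of both lists. Of the far bases, 7.43% of exonic ones but 1.53% of intronic ones had a GC content of 60% or more. At 45 to 50% GC, exons held 4.14 peaks per megabase and introns 8.21 in sgCtrl. At 60 to 65% GC these densities were 561 and 464, and at 70% and over they were 1197 and 1410. The exon density over the intron density at equal GC thus ran from 0.504 (0.368–0.691) at 45 to 50% GC to 1.25 (1.16–1.34) at 65 to 70% GC in sgCtrl, and from 0.614 (0.453–0.833) to 1.28 (1.19–1.39) in sgSNHG1 at the same GC. At 70% and over it was 0.848 (0.757–0.950) and 0.862 (0.764–0.974). If every exonic base had held peaks at the intron rate of its GC, 4326 exonic peaks would be counted in sgCtrl and 2984 in sgSNHG1, so that the observed totals, which balance bins below and above the introns, were 1.06 (1.03–1.09) and 1.01 (0.971–1.04) times these. This comparison was added after the data were seen.

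**Figure D1:**
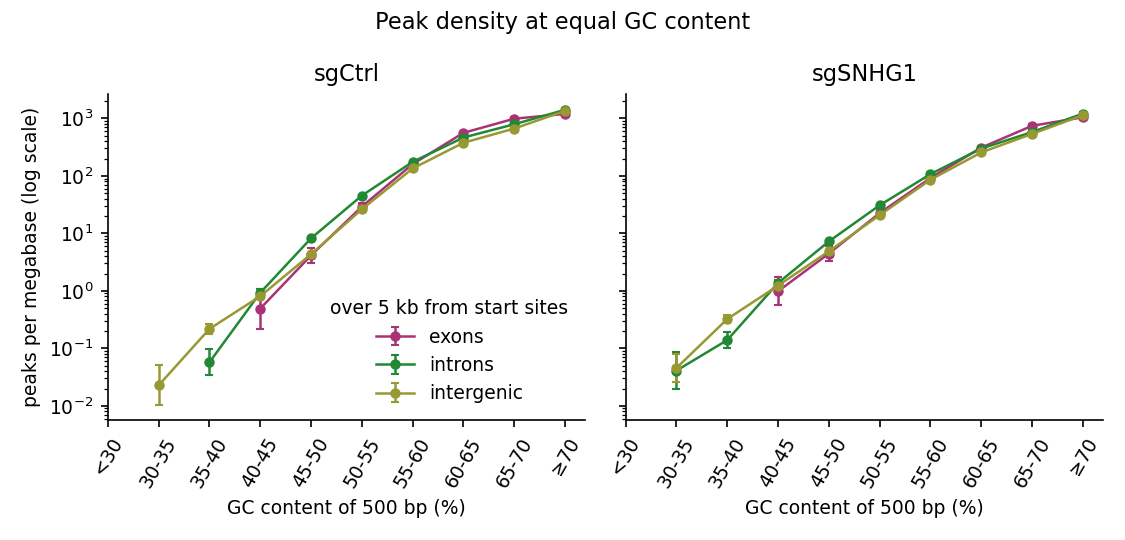
Peaks per megabase (log scale) against the GC content of 500 bp around the midpoint, for exons, introns and intergenic bases over 5000 bp from start sites, in sgCtrl (left) and sgSNHG1 (right). Points are densities of at least 5 peaks with 95% counting intervals, and exons lie below introns up to 60% GC, at 0.504 times their density at 45 to 50% in sgCtrl, and again at 70% and over.

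Peak coverage rose over single inner coding exons and fell at transcript ends. The centres of 73859 inner coding exons of 80 to 300 bp were aligned. In the 50 bp downstream of the centre, 3.74% of the bases lay within a peak in sgCtrl and 1.95% in sgSNHG1. At 950 to 1000 bp upstream the coverage was 1.81% and 0.942%. GC content was 48.9% in the same central bases and 43.2% at the upstream ones. At the ends of 10629 canonical transcripts, by contrast, the last 50 bp were covered at 0.453% in sgCtrl and 0.345% in sgSNHG1, down from 2.91% and 1.71% at 950 to 1000 bp before the end, and the GC content fell there from 43.3% to 30.1%. The coverage did not follow the GC content in every bin. At 950 to 1000 bp past the transcript end the GC content was 44.5% but the sgCtrl coverage 1.60%, and at 100 to 150 bp upstream of exon centres the GC content was 41.6% and the coverage 3.18%.

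The exons with a peak were long ones. Canonical inner exons that held a midpoint had a median length of 210 bp in sgCtrl and 226 bp in sgSNHG1, against 124 bp for 107554 such exons far from start sites. Of those with an sgCtrl midpoint, 13.1% were 1000 bp or longer, and of those with an sgSNHG1 midpoint 14.6%, against 0.665% of all. A longer exon offers more bases to a midpoint, so part of this follows from the rule. The peak was longer than its inner exon in 70.7% and 64.7% of cases, and 27% and 30.8% of the inner-exon peaks lay wholly within exons. Peaks of last exons lay wholly within exons in 73.1% and 75.8% of cases. The summit itself was exonic at 88.8% of all sgCtrl and 89.2% of all sgSNHG1 exonic peaks.

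Exonic peaks were lower over their background than other far peaks. Their fold enrichment, which sets the summit against a background estimated by MACS2, had a median of 3.13 (interquartile range 2.61–3.85) in sgCtrl and 3.13 (2.66–3.74) in sgSNHG1. Intronic peaks had medians of 3.49 and 3.48, intergenic ones 3.93 and 3.91, and peaks within 5000 bp of a start site 4.14 and 4.50. The median −log10 p was 13.8 in sgCtrl and 11.9 in sgSNHG1, and the median length 379 and 347 bp. The pileup (fragments over the summit, recovered from the deposited fold enrichment and −log10 p) had a median of 62 and 52 at exonic peaks over backgrounds of 19.3 and 15.9 fragments. In sgCtrl the median pileup was 50 over a background of 13.2 at intronic peaks, and 43 over 9.26 at intergenic ones. The sgSNHG1 medians had the same order, with pileups of 45 and 39. Exonic peaks thus had the highest median pileup and background of the far peaks, beside the lowest median fold enrichment. The part of the background in this was not tested. The exonic fold enrichment was higher far from start sites. Its sgCtrl median was 2.96 at 5000 to 10000 bp and 3.73 over 100000 bp. Exonic peaks just beyond the distance limit, at 5000 to 6000 bp, had a median of 2.92 in sgCtrl (354 peaks) and 2.95 in sgSNHG1 (213 peaks), and those just short of it, at 4000 to 5000 bp, 2.86 (417 peaks) and 2.92 (268 peaks).

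Exonic peaks sat in repeated sequence less often than intronic ones, and about as seldom at start sites of genes that are not protein coding. The 30 bases at the summit occurred more than once in the genome at 2.77% (2.33–3.28) of sgCtrl and 3.40% (2.81–4.11) of sgSNHG1 exonic peaks, against 20.3% and 21.2% of intronic ones. Without such peaks, the exon density was 4.42 and 4.19 times the intron density. Repeated bases were still counted here, so the rise from 3.62 and 3.41 follows from removing a larger share of intronic peaks. A start site of a gene that is not protein coding lay within 1 kb of 4.64% and 5.00% of the exonic peaks, against 4.19% and 4.18% of intronic ones. These shares leave out the starts of other transcripts of protein-coding genes. Avoiding those by 5000 bp as well left 2419 and 1604 exonic peaks, as given above.

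sgSNHG1 held fewer exonic peaks than sgCtrl, and the ratio was lowest in inner exons. The number of exonic peaks in sgSNHG1 was 0.654 times (0.625–0.685) that in sgCtrl, against 0.693 (0.678–0.709) in introns, 0.764 (0.747–0.782) between genes and 0.897 (0.880–0.914) within 5000 bp of start sites. The ratio was 0.615 (0.576–0.657) in inner exons, 0.703 (0.656–0.753) in last exons and 0.631 (0.524–0.759) in first exons. The intervals of inner and last exons just overlapped. In coding sequence the ratio was 0.636 (0.601–0.674), and in 3′ UTR it was 0.710 (0.643–0.783). When the sgCtrl list was reduced to the 49412 peaks of highest −log10 p, so that both lists had the same size, the ratio was 0.851 for exonic, 0.941 for intronic, 1.03 for intergenic peaks and 1.05 for peaks near start sites.

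The ratio of the lists also changed with GC content. For exonic peaks it was 1.07 (0.699–1.65) at 45 to 50% GC, 0.771 at 50 to 55%, 0.574 at 55 to 60%, 0.553 (0.513–0.596) at 60 to 65%, 0.752 at 65 to 70% and 0.873 at 70% and over. The intronic ratios at the same GC were 0.883, 0.679, 0.612, 0.643 (0.615–0.671), 0.731 and 0.859. Exons were thus below introns beyond counting error at 60 to 65% GC, the bin with the most exonic peaks, and the intervals of exons and introns overlapped in the other 5 bins.

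All 22 chromosomes had fewer exonic peaks in sgSNHG1, and the ratio spanned 0.519 (0.406–0.662) on chromosome 3 to 0.929 (0.759–1.14) on chromosome 8. Chromosome 4 had an exonic ratio of 0.623 (0.458–0.847) with an intronic ratio of 0.483, and chromosome 3 had an intronic ratio of 0.742. Chromosome 2, which carries *MYCN*, had an exonic ratio of 0.745 (0.619–0.897).

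Many exonic peaks of sgCtrl had no counterpart in sgSNHG1, whereas most of those of sgSNHG1 had one in sgCtrl. No sgSNHG1 peak overlapped 2203 of the 4591 sgCtrl exonic peaks, or 48.0% (46.5–49.4), against 38.7% of all sgCtrl peaks. The share was 49.6% (48.9–50.3) in introns, 44.1% between genes and 23.9% near start sites, so exonic peaks were close to intronic ones. It was 51.0% (49.0–53.1) in inner exons and 43.8% (41.6–46.1) in last exons. Conversely, no sgCtrl peak overlapped 479 of the 3003 sgSNHG1 exonic peaks, or 16.0% (14.7–17.3), against 20.6% of all sgSNHG1 peaks. Here exons stood below introns, where the share was 25.8% (25–26.6), and below intergenic peaks with 25.4%. With lists of equal size, which differ in their lowest −log10 p, the shares of exonic peaks were 39.2% in sgCtrl and 23.5% in sgSNHG1. These stood beside 28.7% and 27.3% of all peaks. Of the 2388 sgCtrl exonic peaks with a counterpart, that counterpart was itself a far exonic peak in 2137 cases (89.5%) and an intronic one in 240.

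The peaks found in 1 list only were the weaker ones. Exonic sgCtrl peaks with no sgSNHG1 counterpart had a median −log10 p of 11.5 and a median fold enrichment of 2.95, and those with one had 17.6 and 3.32. At a −log10 p of 6 to 8, 86.3% (80.9–90.3) of sgCtrl exonic peaks had no counterpart, at 20 to 30 it was 10.7% (8.63–13.3), and at 50 and over it was 0 of 67, which allows up to 5.42%. In sgSNHG1, exonic peaks lacked a counterpart less often than intronic ones of the same −log10 p, with 9.80% (7.73–12.3) against 23.4% (21.8–25.1) at 12 to 15. At equal GC content, however, the sgSNHG1 shares of exons and introns lay close together, with 30.4% and 27% at 55 to 60% GC, 14.6% and 16.3% at 60 to 65%, and 7.60% and 8.51% at 65 to 70%.

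Where both lists had a peak, the exonic pileup, which includes the background, was relatively lower in sgSNHG1. The log2 ratio of the pileups, sgSNHG1 over sgCtrl, was taken relative to its median of -0.20 over all shared peaks. Its median was -0.23 (interquartile range -0.43 to -0.04) over the 2388 shared exonic peaks, -0.12 over intronic, -0.06 over intergenic ones and 0.17 over peaks near start sites. Inner and last exons had medians of -0.22 and -0.24. The ratio fell with GC content, from 0.02 in exons at 50 to 55% GC to -0.21 at 60 to 65% and -0.34 at 70% and over, and the intronic medians at the same GC were 0.08, -0.19 and -0.35. The spread within exons was thus wider than the distance between exons and introns. At exonic peaks with a counterpart, the median background was 21.4 fragments in sgCtrl and 16.6 in sgSNHG1, and at intronic ones 15.4 and 13.3. Their median fold enrichments were 3.32 and 3.14 in exons, and 3.65 and 3.49 in introns. The part of the background in the lower exonic pileup was not tested.

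The highest exonic peaks are described next, by exon class. Among inner exons, *MUC3A* exon 2 had, as fold enrichment and −log10 p, 8.83 and 120 in sgCtrl, and 8.44 and 110 in sgSNHG1. The peak of *ATN1* exon 5 had 5.20 and 91.0 in sgCtrl and 5.53 and 109 in sgSNHG1, so it was not lower in the depleted cells. *KIF13B* exon 39 of 40, in a kinesin motor gene, had 4.97 and 96.3 in sgCtrl and 4.47 and 51.5 in its sgSNHG1 counterpart. *PELO* exon 2 of 3, coding for a factor that rescues stalled ribosomes, had 13.2 and 74.0 in sgCtrl and 11.4 and 78.8 in sgSNHG1, and a start site of a gene that is not protein coding lay 514 bp from its summit. All 4 sites had a peak in both lists.

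Among last exons, *MYCN* exon 3 of 3 had the highest −log10 p of all sgCtrl exonic peaks. Its fold enrichment was 1.63 and its −log10 p 176 in sgCtrl (chr2:15945536-15945967), and they were 1.44 and 73.2 in sgSNHG1 (chr2:15945547-15945931), with midpoints 5185 and 5173 bp from the nearest start site. The pileup there was 3939 and 2779 over backgrounds of 2419 and 1929 fragments, against median backgrounds of 19.3 and 15.9, and the line carries many copies of this gene. The high −log10 p thus went with a low fold enrichment on an amplified locus. *EPPK1* exon 2 of 2 (epiplakin, a cytoskeletal linker) had 17.7 and 143 in sgCtrl and 13.8 and 75.9 in sgSNHG1, and *PAQR8* exon 2 of 2 (a membrane progesterone receptor), with a midpoint in 5′ UTR, had 10.7 and 109, and 8.81 and 69.9. In sgSNHG1 the highest were *MRPL23* exon 5 of 5 (a mitochondrial ribosomal protein) with 11.3 and 107, *KBTBD11* exon 2 of 2 with 8.96 and 92.2, and *NOS3* exon 27 of 27 (endothelial nitric oxide synthase) with 5.10 and 86.7. The sgCtrl counterparts of the latter 3 had 8.60 and 87.5, 8.53 and 106, and 3.75 and 55.9.

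Among first exons, the highest in sgCtrl were in *SEPTIN9* (a cytoskeletal septin) with 3.31 as fold enrichment and 63.7 as −log10 p, *BAHCC1* with 2.99 and 57.1, and *SSBP3* (a cofactor of LIM homeodomain complexes) with 5.11 and 52.4. The highest in sgSNHG1 were in *TULP4* with 11.4 and 119, *SERTAD2* with 7.54 and 45.4, and *XXYLT1* (a xylosyltransferase) with 4.23 and 41.1. The sgCtrl counterpart at *TULP4* had 11.1 and 112 and was counted as intronic by its midpoint. The *TULP4* exon begins at the annotated start of the gene (chr6:158232236), in a transcript that is not typed protein coding, so this peak lay at a start site that the distance rule did not use. Transcripts with an only exon gave peaks in *MED9* (a Mediator subunit) with 6.35 and 40.8 and *UQCC2* (a complex III assembly factor) with 3.72 and 35.9 in sgCtrl, and at *MED9* the summit bases occur 148 times in the genome. In sgSNHG1 they were *UQCC2* with 4.65 and 45.7, *MED9* with 4.87 and 21.5, and *MICAL3* (an actin-oxidizing enzyme) with 3.19 and 20.1.

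Exonic peaks with no peak of the other list within 1 kb had a −log10 p of at most 41.5 in sgCtrl and 25.4 in sgSNHG1. The highest of these in sgCtrl were at *CHRNA7* (the alpha-7 nicotinic acetylcholine receptor), exon 10 of 10, with 10.01 as fold enrichment and 41.5 as −log10 p, *PWP2* (ribosome biogenesis) with 8.65 and 33.1, *RASA4B* (a Ras GTPase-activating protein) with 8.48 and 32.1, *MYO19* (a mitochondrial myosin) with 4.05 and 30.7, and another site of *EPPK1* with 3.94 and 30.04. The 30 summit bases occur 19 times in the genome at the *EPPK1* site and 1 time at the other 4, although *CHRNA7* and *RASA4B* have near-identical relatives elsewhere. In sgSNHG1 they were at *ELMO1* (an activator of Rac) with 5.75 and 25.4, *SGCE* (a sarcoglycan) with 7.25 and 24.1, *CDC6* (replication licensing) with 3.63 and 22, *ARHGEF40* with 3.48 and 20.2, and *HHAT* (which acylates Hedgehog proteins) with 4.77 and 20.01. The *ELMO1* summit bases occur 876 times. The GC content was 41.8% to 62.6% at the 5 sgSNHG1 sites and 59.8% to 77.2% at the 5 sgCtrl sites. Medians were 59.6% and 61.8% over all exonic peaks with no overlapping peak, and 63.4% and 63.0% over all exonic peaks. The background was the same 4.89 fragments at *CHRNA7*, *PWP2* and *RASA4B*, against a median of 19.3 over sgCtrl exonic peaks. Their pileups of 58, 50 and 49 were below the median of 62. At *SGCE* the background was 4.66, against a median of 15.9 in sgSNHG1.

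Exonic peaks were spread over many genes. They fell in 2780 genes in sgCtrl and 2049 in sgSNHG1, or 18.6% and 13.7% of the 14937 genes with exonic bases far from start sites. Both lists had a peak in 1767 genes, which is 63.6% of the sgCtrl and 86.2% of the sgSNHG1 genes. In sgCtrl 424 genes held 3 or more, and in sgSNHG1 218.

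Among the 10 genes with the most exonic peaks, *CROCC2* (a relative of rootletin) held 5 in sgCtrl and 10 in sgSNHG1, *PLEC* (plectin) 8 and 7, and *TNRC18* 9 and 5. *TRIO* (a guanine nucleotide exchange factor) held 6 and 8, *DNAH17* (an axonemal dynein) 7 and 6, *TRIOBP* (an actin binder) 7 and 6, *CROCC* (rootletin) 5 and 7, and *DLG5* (a cell polarity scaffold) 10 and 2. By midpoint, sgCtrl held more at some of these genes and sgSNHG1 at others, and the summit bases of 2 of the 7 sgSNHG1 peaks in *CROCC* occur more than once in the genome. Of the sgSNHG1 peaks, 9 of 10 in *CROCC2* and 6 of 7 in *CROCC* overlapped an sgCtrl peak, beside 84.0% of all sgSNHG1 exonic peaks and 79.4% of all sgSNHG1 peaks. Some of the overlapping sgCtrl peaks at *CROCC2* were counted as intronic by their midpoint. *DLG5* had 11.1 exonic peaks per 10 kb of far exon in sgCtrl and *TRIO* 3.55, against 0.673 over all genes. At *DLG5* all 10 sgCtrl sites were inner exons with fold enrichments of 2.26 to 3.25 and −log10 p values of 8.64 to 17.0, and 8 of them had no sgSNHG1 peak, beside 48.0% of all sgCtrl exonic peaks and 38.7% of all sgCtrl peaks. At *TRIO* the 6 sgCtrl sites had fold enrichments of 2.77 to 5.27 and all had an sgSNHG1 peak, while 2 of the 8 sgSNHG1 sites, exon 36 shown above among them, had no sgCtrl peak, beside 16.0% of all sgSNHG1 exonic peaks and 20.6% of all sgSNHG1 peaks.

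Of 5 transcription factor genes of the NB core regulatory circuitry, 2 held an exonic peak in sgCtrl and 3 in sgSNHG1, beside 18.6% and 13.7% of all genes. *MYCN* and *TBX2* held 1 each in both lists, *ISL1* held 1 in sgSNHG1, and *HAND2* and *GATA3* held none. *TBX2* exon 6 of 7 (chr17:61405193-61406051 in sgCtrl) had in sgCtrl 3.54 as fold enrichment, 56.4 as −log10 p and 226 as pileup, and 2.66, 23.6 and 139 in sgSNHG1. Its relative log2 pileup ratio was -0.50, below the lower quartile of -0.43 over all shared exonic peaks. The GC content at its sgCtrl summit was 71%, and shared exonic peaks at 70% GC and over had quartiles of -0.54 and -0.13. The *TBX2* ratio lay within these. That of *MYCN* was -0.30, within the quartiles of all shared exonic peaks. *ISL1* exon 4 of 6 had 6.23 and 67.8 in sgSNHG1, and the overlapping sgCtrl peak, with 7.35 and 83.8, had its midpoint in the intron. The difference at *ISL1* is thus one of the midpoint and not of the presence of a peak.

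Gene groups chosen for this tissue held exonic peaks in a larger share of their genes than the 18.6% and 13.7% over all genes, except the mesenchymal factors in sgCtrl and *DYNC1I1*, which was looked up alone. Of the adrenergic transcription factors with far exonic bases, 10 of 18 held one in sgCtrl and 8 in sgSNHG1. They include *ZNF536* exon 2 with fold enrichments of 5.47 and 4.68 and *PROX1* exon 2 with 6.08 and, in its sgSNHG1 counterpart, 4.38. Of the mesenchymal factors, 4 and 5 of 23 held one, with *FOSL2* at 3.61 in both lists, *MEF2D* at 3.25 and 3.24, *RUNX1* at 6.45 and 5.48, and *SMAD3* at 2.86 and 2.76. The members of these groups differ in exon length, and per 10 kb of far exon the adrenergic group held 1.67 and 1.30 peaks, the mesenchymal group 0.611 and 0.524, and all genes 0.673 and 0.440.

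Chromatin regulators held an exonic peak in 19 of 36 genes in both lists, 46 peaks in sgCtrl and 31 in sgSNHG1. Examples are *BRD3* exon 8 (a bromodomain reader of acetylated histones) with fold enrichments of 3.58 and 3.79, and *HDAC4* exon 13 (a histone deacetylase) with 2.84 and 2.86. Neuronal channel and synaptic genes held one in 17 and 14 of 29, among them *CACNA1A* exon 47 of 47 (a calcium channel) with 5.63 and 4.81, *KCNH2* exon 15 of 15 (a potassium channel) with 3.16 and 3.12, and *CACNA1G* exon 33 with 3.30 and 2.99. Cell adhesion and guidance genes held one in 17 and 13 of 28, among them *CELSR2* exon 2 with 2.82 and 2.55, *LRP5* exon 11 with 3.25 and 3.52, and *NCAM1* exon 4 with 4.87 and 4.05. At *HDAC4* exon 13 and *NCAM1* exon 4, a start site of a gene that is not protein coding lay near the summits. Its distance in sgCtrl and sgSNHG1 was 339 and 313 bp at *HDAC4*, and 404 and 559 bp at *NCAM1*. *DYNC1I1* held no exonic peak in either list. Of the sgCtrl exonic peaks in these 3 groups, 22 of 46, 19 of 35 and 21 of 48 had no sgSNHG1 peak, beside 48.0% of all exonic peaks. Per 10 kb of far exon these 3 groups held 1.31, 1.25 and 1.98 peaks in sgCtrl, against 0.673 over all genes. In sgSNHG1 they held 0.880, 0.822 and 1.15, against 0.440.

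Short motifs were counted on both strands in 300 bases around each summit. The sequence AGGTGTGA, a core of T-box factor sites, was present at 1.39% (1.09–1.78) of exonic and 3.77% (3.50–4.05) of intronic sgCtrl peaks, and at 2.50% of all sgCtrl peaks. AGATAA, the core of GATA factor sites, was present at 1.57% (1.25–1.97) and 2.92% (2.69–3.17), and TGANTCA, the AP-1 site, at 3.20% (2.73–3.75) and 4.75% (4.46–5.07), beside 2.55% and 4.08% of all sgCtrl peaks. CAGCTG, an E-box, was present at 34.7% (33.4–36.1) and 28.6% (28–29.3), CACGTG, the E-box of MYC proteins, at 8.82% (8.04–9.68) and 6.71% (6.36–7.08), and GGGCGG, the GC box, at 34.3% (32.9–35.7) and 25.5% (24.8–26.1), beside 27.9%, 6.50% and 37.4% of all sgCtrl peaks. The first 3 motifs were thus rarer and the latter 3 more frequent at exonic than at intronic peaks. These peaks also differed in GC content and in repeated summit sequence, found at 2.77% of exonic and 20.3% of intronic sgCtrl peaks. The part of the base composition and of repeated sequence in the motif shares was not tested. The sgSNHG1 shares had the same order in exons and introns for these 6 motifs, for example 1.17% and 3.68% for AGGTGTGA and 8.19% and 6.73% for CACGTG. Another E-box, CATCTG, was at 19.6% and 20.4% of sgCtrl peaks, with overlapping intervals. *RASA4B* was the only one of the 5 windows shown above that held one of these motifs, CAGCTG.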

How the data were processed

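H3K27ac ChIP-seq peak lists of SK-N-BE(2)C cells were used, 1 for each group of 2 samples. Per the paper's methods, the authors trimmed reads with cutadapt, aligned them to GRCh38 with BWA, combined both replicates and called peaks with MACS2. No input library is named. The deposited lists hold a fold enrichment, a ratio of the summit to the background, the −log10 of the p-value and of the q-value, a score made by the authors' caller, and the offset of the summit. The lowest deposited −log10 p is 6.01 in sgCtrl and 6.00 in sgSNHG1, and its size grows with depth, which is unknown. Other deposited columns (names and strand) were not used.

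Start sites were those of GENCODE 44 transcripts typed protein coding (75398 sites), and exons those of all transcripts of protein-coding genes. Where exons overlapped, canonical transcripts came first, then other protein-coding transcripts, then the rest, and within these first, last and inner exons in this order. Peaks sharing at least 1 bp were called overlapping. Densities used bases of known sequence. The pileup was solved from fold enrichment and −log10 p, assuming a pseudocount of 1, and was whole within 0.001 for 99.9% of peaks of both lists. Python 3.11.15, numpy 2.4.6, pandas 2.3.3, scipy 1.17.1 and pysam 0.24.0 were used, and the functions were tested on simulated data and against bedtools 2.31.1. With no replicate values no test was made, and 95% intervals (Wilson for shares, Poisson on the log scale for ratios) cover counting error only.

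The exonic peaks, gene lists and tests were chosen with earlier results of these data known. Named genes were the core circuitry genes, the 10 genes with most exonic peaks, the 3 highest peaks per exon class and list, the 5 highest without a neighbour in the other list, up to 4 per gene list, and the hosts of the printed sequences. Sites on chromosome 8 or with untranslated bases were not considered for printing. *TBX3* was added. Some genes that these rules name are not reported here. Alternatives changed the −log10 p, list size, distance, start sites, exons, point, overlap and chromosomes.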

Additional observations from a re-analysis of the deposited data

How the results depend on the processing

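Each of 8 results was recomputed under the alternatives. Of 69 values that carry a counting interval, 36 stayed within the interval of the reported value. A direction was defined for the ratios of numbers and densities but not for the shares, and no such ratio crossed 1. The interval of the sgSNHG1 density ratio against introns of the same GC, 0.971–1.04, did include 1. The median relative log2 pileup ratio, which has no such interval, ran from -0.26 to -0.22 under its 8 alternatives. Exonic peaks in sgSNHG1 over those in sgCtrl came to 0.564 at a −log10 p of at least 10 and 0.851 with lists of equal size. The share of sgCtrl exonic peaks with no sgSNHG1 peak was 58.8% when 50% of both peaks had to overlap, 39.2% when a peak within 1 kb counted, 53.8% at a −log10 p of at least 10, 39.2% with lists of equal size and 46.5% with the start sites of every transcript. The sgSNHG1 share was 37.0%, 10.7%, 14.3% and 23.5% under the first 4 of these. After the data were seen, alternatives were added for the exon density over the intron density. It came to 1.06 in sgCtrl and 1.01 in sgSNHG1 against introns of the same GC. It came to 4.42 and 4.19 without summits in repeated sequence, with repeated bases still counted. In sgCtrl it was 3.74 at a −log10 p of at least 10, 3.77 with lists of equal size, 3.78 over 3000 bp from start sites and 3.74 without chromosomes 2 and 4. In sgCtrl and sgSNHG1 it was 3.36 and 3.24 over 10000 bp, 3.37 and 3.20 with the start sites of every transcript, and 4.01 and 3.79 with exons of protein-coding transcripts. Last exons made up 40.5% and 43.3% over 10000 bp, 50.6% and 54.1% with the start sites of every transcript, 43.8% and 47.2% with exons of protein-coding transcripts, and 51.9% and 54.4% when last exons of any transcript came first. The causes were not tested. No paired analysis was possible because the lists pool the replicates of a group, and leaving out a replicate was not run for the same reason. The lists carry no depth, so the number of weak peaks cannot be compared at equal depth, and bases that reads cannot be placed on were counted in the densities.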
